A study of Sus scrofa with 9 samples.

Results

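SCGB1D1, SCGB3A1 and PHEROC are genes of small secreted proteins, each represented by 1 of the 13157 probe sets with a single gene symbol on the array. They are 3 of the 12217 genes measured here in 9 RNA samples of pig esophagus, each hybridised to an Affymetrix PorGene 1.0 ST array. They were picked by symbol from values of these same arrays, for large gland-specific levels, so their differences between groups are given as a description without a test. Levels are given on the log2 RMA scale, where a step of 1 stands for a doubling.

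The arrays fall into 3 groups of 3. The first held esophageal submucosal glands (ESMG), which secrete mucus and fluid onto the esophageal lining, from pigs 37, 39 and 40, described as control pigs. The second held the squamous tissue overlying the glands of the same animals. The third held spheroids that ESMG cells formed in culture, with the labels pig 1, 2 and 3, kept in growth factor reduced Matrigel under Advanced DMEM/F12 with B27, N2, 10 mM HEPES and 50 ng/ml of recombinant human EGF. The labels do not say whether the spheroid animals were the tissue animals, and give no age, sex or breed. Tissue and spheroid RNA were isolated with different kits, so kit and culture cannot be told apart. The number of arrays, 3 per group, limits the precision.

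Secretoglobins are small secreted proteins that pair through disulfide bonds and enclose a pocket for hydrophobic ligands, among them steroids, and they are typical products of airway and exocrine glands. Pheromaxein, a secretoglobin of boar saliva, carries androstene steroid pheromones and is built from an A and a C subunit. PHEROC is the gene of the C subunit, and the RefSeq gene table gives PHEROA as the synonym of SCGB1D1, the A subunit. Lipocalins are a separate family of secreted carriers with a barrel fold; the salivary lipocalin of the pig, which also carries boar pheromones, is the gene SAL1 and has a probe set of its own. PHEROC is therefore described here as a secretoglobin subunit and not as a lipocalin, although it was chosen under the name of a salivary lipocalin. In the RefSeq table both subunit genes lie on chromosome 2 with 0 annotated genes between them, 2 annotated genes away from SCGB1A1, the secretoglobin of airway club cells. SCGB1A1 itself is not analysed here. SCGB3A1, a secretoglobin of airway and other epithelia, lies on chromosome 2 apart from that cluster, and SAL1 on chromosome 1.

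The A subunit gene SCGB1D1 was high in gland tissue and near the bottom of the array range in spheroids. Its level was 12.78, 12.61 and 10.67 in the ESMG of pigs 37, 39 and 40. In their squamous tissue it was 8.23, 5.18 and 6.70. In spheroids of pigs 1, 2 and 3 it was 4.51, 5.29 and 4.79. No ESMG array overlapped another group: all 3 lay above the 6 others, as they did for 525 of the 12217 genes. The squamous array of pig 39 lay within the spheroid range. Group means were 12.02 ± 1.17 in ESMG, 6.70 ± 1.52 in squamous tissue and 4.87 ± 0.39 in spheroids (SD, n = 3 each). The log2 difference was 5.32 (SE 0.68) for ESMG minus squamous tissue and -7.15 (SE 0.68) for spheroids minus ESMG, 39.9-fold and 142-fold. Each SE here and below is from the limma fit, which pools the spread of all 3 groups, so it is the same in each comparison. It does not reflect that the SD was 1.52 in squamous tissue and 0.39 in spheroids.

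The C subunit gene PHEROC had the same group order. It stood at 12.21, 12.69 and 11.80 in the ESMG of pigs 37, 39 and 40. Squamous tissue of the same pigs gave 9.03, 5.08 and 7.95. Spheroids gave 4.41, 5.20 and 4.32. Again no ESMG array overlapped the others, and the squamous array of pig 39 lay among the spheroids. Group means were 12.23 ± 0.45, 7.35 ± 2.04 and 4.64 ± 0.49 for ESMG, squamous tissue and spheroids (SD, n = 3 each). The log2 difference was 4.88 (SE 0.74) between ESMG and squamous tissue and -7.59 (SE 0.74) between spheroids and ESMG, or 29.4-fold and 193-fold. This SE is pooled too, although the SD was 2.04 in squamous tissue against 0.45 and 0.49 in the other groups. For comparisons with squamous tissue it therefore understates the spread. Fewer cells of a type and less RNA per cell cannot be told apart in such bulk samples.

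For both subunit genes 4 of the 9 arrays lay under the lower quartile of their array, which was between 5.36 and 5.65: the 3 spheroid arrays and the squamous array of pig 39. RMA compresses differences there, and no detection call was used, so these levels are not read as absence and the folds are open to the floor. In the 3 spheroid samples, the share of an array's probe sets that read lower than SCGB1D1 was 14.3, 22.9 and 17.5%, and for PHEROC it was 13.1, 21.7 and 12.2%.

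**Figure D1:**
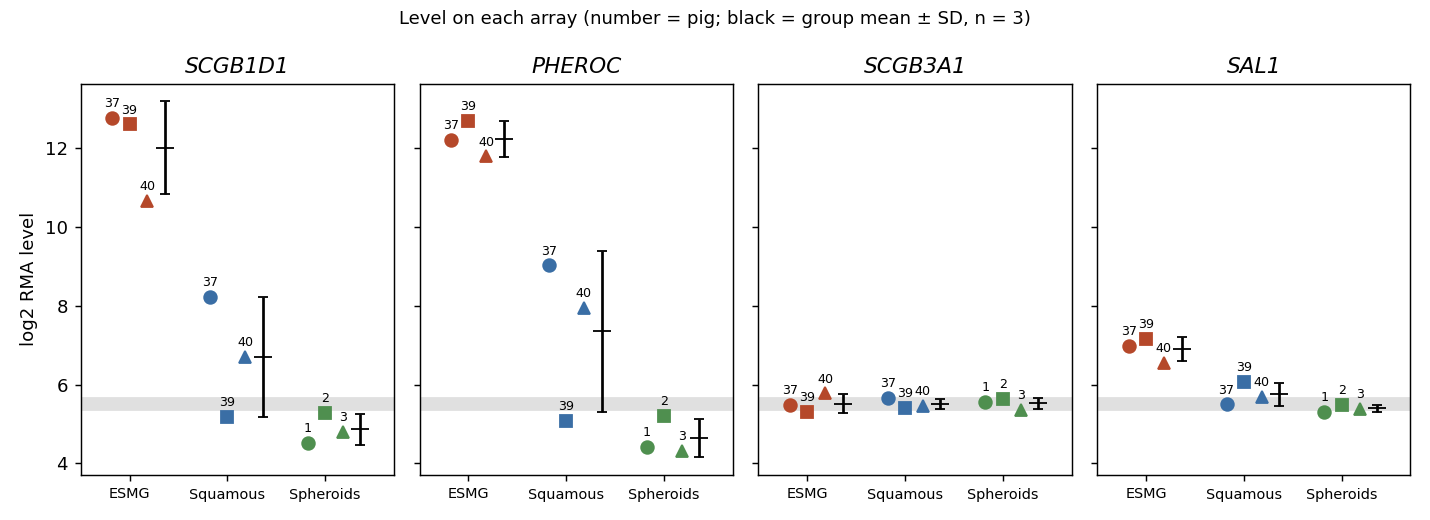
Log2 RMA level of SCGB1D1, PHEROC, SCGB3A1 and the salivary lipocalin SAL1 on each of the 9 arrays, labelled by pig number, with group mean ± SD in black and the range of the arrays' lower quartiles in grey. The 2 subunit genes stand between 10.67 and 12.78 in ESMG and under 5.30 in spheroids, the squamous arrays of pigs 37 and 40 lie between, SCGB3A1 is flat near the grey band, and SAL1 is higher in ESMG over a smaller range.

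SCGB3A1 did not show the gland-specific level for which it was chosen. Its level was 5.48, 5.30 and 5.78 in ESMG, 5.66, 5.40 and 5.47 in squamous tissue and 5.56, 5.64 and 5.36 in spheroids. All 3 groups overlapped, and the whole range over the 9 arrays was 0.47. ESMG minus squamous tissue was 0.01 (95% interval -0.33 to 0.35), and spheroids minus ESMG 0.00 (-0.34 to 0.35). With 4 of 9 arrays under the lower quartile, a level too low for the array to follow and an unchanged level cannot be told apart. Its SD over the 9 arrays, 0.155, was above that of only 9.89% of genes, against 99.98% for SCGB1D1 and PHEROC.

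Spheroids and squamous tissue were both low for the subunit genes against ESMG. A gland-specific level takes in the squamous and spheroid values as well, so this contrast is also a description with no test. PHEROC was lower in spheroids than in squamous tissue by a difference of -2.71 (pooled SE 0.74), and SCGB1D1 by a difference of -1.84 (pooled SE 0.68). The arrays of the groups overlapped for both genes, through the squamous array of pig 39, and every spheroid value lay near the floor. The PHEROC difference ran from -1.87 without the squamous array of pig 37 to -3.85 without that of pig 39, and that of SCGB1D1 from -1.07 to -2.60 without the same arrays. SCGB3A1 had a difference of 0.01 (95% interval -0.33 to 0.36). Both subunit genes were thus ordered ESMG, squamous tissue, spheroids by mean, and the lower 2 groups overlapped.

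The animals differed most in squamous tissue. For SCGB1D1 the ESMG minus squamous difference was 4.55 in pig 37, 7.43 in pig 39 and 3.97 in pig 40. For PHEROC it was 3.18, 7.61 and 3.84 in the same pigs. Put as shares, the squamous level of SCGB1D1 was 4.26, 0.581 and 6.36% of the same pig's ESMG level, and that of PHEROC 11.01, 0.510 and 6.97%. In both genes pig 39 had the lowest squamous share, and pigs 37 and 40 were at least several times higher. The disulfide isomerase relative AGR2 of mucous cells, picked after its values were seen, had shares of 4.11, 0.592 and 1.43%, and the gel-forming mucin MUC19 2.57, 1.15 and 2.83%. Lactoperoxidase LPO, an antibacterial enzyme also picked afterwards, had 34.98, 33.7 and 36.04%, nearly the same in each pig.

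Other gland genes went with the subunit genes on some of these arrays. A gene was called where limma gave at least a 2-fold difference with a p below 0.05 after Benjamini-Hochberg adjustment. Of 13 serous and mucous genes called higher in ESMG than in squamous tissue, 8 had their lowest squamous level in pig 39, and of all 324 genes called higher in ESMG (2.65% of those tested) 54.6% did, against 4398 of all 12217 genes. The mean level of the 7 measured mucous genes was 7.55, 6.59 and 6.60 in the squamous tissue of pigs 37, 39 and 40, and that of 10 glandular and ductal markers 8.11, 7.74 and 7.73. Pig 37 was thus the highest for both lists, while pigs 39 and 40 were alike, unlike for the subunit genes. On the ESMG side the array of pig 40 was the lowest for SCGB1D1 and PHEROC and for 81.8% of the 324 genes, against 32.3% of all genes. The 13 and 324 genes were called from these same arrays, so their shares are a description with no test. How much gland tissue each sample held was not tested.

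**Figure D2:**
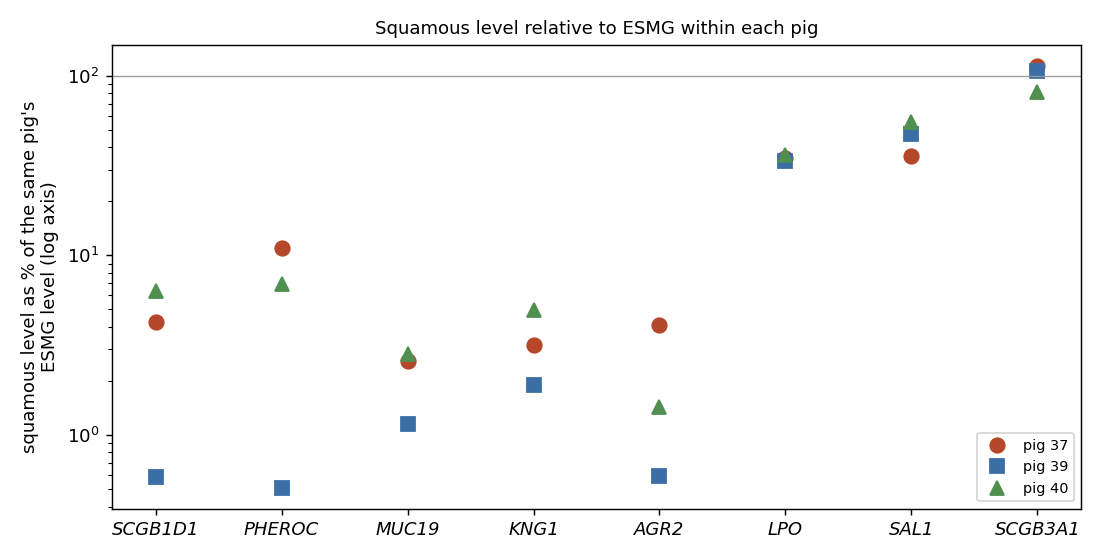
Squamous level as a percentage of the same pig's ESMG level on a log axis, for pigs 37, 39 and 40, from RMA levels put on the linear scale. SCGB1D1 and PHEROC run from 0.510% in pig 39 to 11.01% in pig 37. AGR2 is also lowest in pig 39, over a smaller spread of 0.592 to 4.11%. LPO stays between 33.7 and 36.04%, SAL1 between 35.6 and 55.2% and SCGB3A1 near 100%.

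The 2 subunit genes were each other's nearest neighbour in profile. Likeness was measured over the 9 arrays as the root mean square difference between log2 profiles, each centred on its own mean, among genes whose symbol is not a locus identifier. PHEROC lay 0.64 from SCGB1D1. The next for SCGB1D1 were MUC19 at 0.83, the kininogen gene KNG1 at 1.03 and LMAN1L, a relative of the cargo lectin of the early secretory pathway, at 1.22. The next for PHEROC were MUC19 at 1.28, KNG1 at 1.32 and SLC28A3, a concentrative nucleoside transporter, at 1.34. Only 7 of 11077 genes lay within 1.5 of SCGB1D1 and 4 within 1.5 of PHEROC. The profiles were not scaled, so only genes with about as large a range could lie near. The pair was chosen for large levels, so its nearness and these counts are a description. The other genes were chosen for their likeness, so their values carry no test either.

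On the squamous and spheroid arrays the pair differed from some of its neighbours in profile. KNG1 had 5.76, 5.53 and 5.92 in the squamous tissue of pigs 37, 39 and 40, a range of 0.38 against 3.05 for SCGB1D1 and 3.95 for PHEROC. MUC19 had 7.45, 6.06 and 6.15 in the squamous tissue of these pigs, a range of 1.39. As in the pair, pig 37 was highest and pig 39 lowest. LMAN1L had the same mean in spheroids and squamous tissue, 6.71 in each. SLC28A3 was at 6.72 in squamous tissue and 4.99 in spheroids, a difference of -1.73, of the size seen for SCGB1D1. The 4 genes nearest to SCGB3A1 were MIR202, C1QTNF4, RHEBL1 and SLC5A11, all within 0.08, but 1613 genes lay within 0.2 of it, so these names single out nothing beyond a flat profile.

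**Figure D3:**
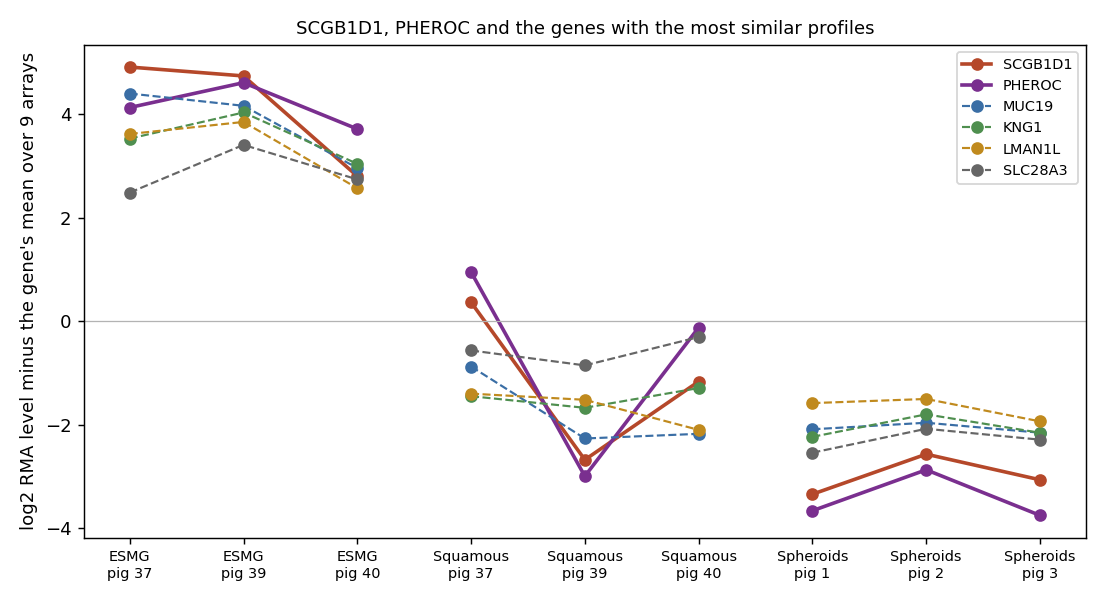
Log2 level minus the gene's own mean over 9 arrays for SCGB1D1, PHEROC and the genes nearest to them, MUC19, KNG1, LMAN1L and SLC28A3. All are high on the 3 ESMG arrays and lowest or low on spheroids. Among the genes drawn, SCGB1D1 and PHEROC alone drop by about 3 or more from the squamous array of pig 37 to that of pig 39. The drop is not particular to the pair, since AGR2, which is not drawn, went from 8.27 to 5.24 on these arrays.

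The measured genes beside the pair on chromosome 2 differed far less than the pair between ESMG and squamous tissue. The 4 measured genes on each side, a choice made after the values of the pair were seen, were TUT1, EEF1G, AHNAK and ASRGL1 before it and INCENP, FTH1, RAB3IL1 and FADS3 after it. None of these 8 was called between ESMG and squamous tissue by limma, where 3.06% of all genes were (2.65% higher and 0.409% lower in ESMG), and their differences lay between -0.31 (INCENP) and 0.21 (ASRGL1). Between spheroids and ESMG, where 16.9% of all genes were called (7.99% rising and 8.91% falling in culture), only the fatty acid desaturase relative FADS3 was, and it rose by 2.00 (adjusted p = 8.04e-06). The nearest measured genes, ASRGL1 and INCENP, had 0.63 and 0.70 there, against -7.59 and -7.15 for the pair. Against squamous tissue 16.7% of all genes were called (8.61% up and 8.05% down in culture). There FADS3 rose (1.80, limma adjusted p = 1.63e-05) and AHNAK fell (-1.13, adjusted p = 9.61e-05). The AHNAK call was lost without the spheroid array of pig 2 (-0.99, under the fold minimum). For 8 genes these counts of calls are near the shares over all genes, so the counts single out nothing about the neighbours.

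**Figure D4:**
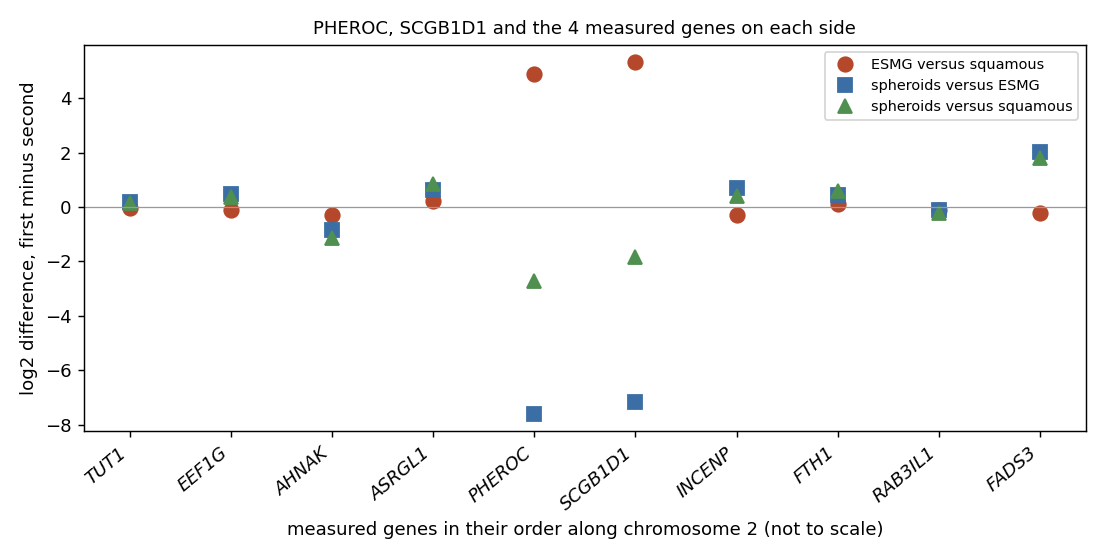
Log2 difference in each of the 3 comparisons for PHEROC, SCGB1D1 and the 4 measured genes on either side, in gene order along chromosome 2 and not to scale. The pair stands at 4.88 and 5.32 for ESMG minus squamous tissue, while the 8 neighbours lie between -0.31 and 0.21.

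The salivary lipocalin SAL1, which carries the same class of pheromones and was added after its values were seen, was higher in ESMG by a smaller amount. Its level was 6.99, 7.15 and 6.55 in ESMG, 5.50, 6.07 and 5.69 in squamous tissue and 5.31, 5.48 and 5.39 in spheroids. ESMG did not overlap either group, and SAL1 was thus also among the 525 genes with all 3 ESMG arrays above the 6 others. By limma it was 2.21-fold higher in ESMG than in squamous tissue (log2 1.14, SE 0.19, adjusted p = 0.00402) and 2.84-fold lower in spheroids than in ESMG (-1.50, SE 0.19, adjusted p = 6.87e-05). Spheroids and squamous tissue differed by -0.36 (95% interval -0.78 to 0.05, adjusted p = 0.154), which did not pass. Unlike the pair, SAL1 was highest among squamous samples in pig 39.

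Other members of the families were mostly not measured or not called. Of 9 further secretoglobins 1 was measured, SCGB1C1, which lay between 5.54 and 6.21 on all 9 arrays and was called in no comparison (differences -0.23, -0.14 and -0.37). The list of 22 further lipocalins leaves out SAL1, described above, and 13 of them were measured. In ESMG against squamous tissue, where 3.06% of all genes were called, 1 of the 13 was higher, with a list median of -0.06, equal to that of all genes (-0.06). It was LCN2, the siderophore-binding lipocalin of innate defence, at 8.87, 8.76 and 8.86 in ESMG and 7.45, 6.92 and 6.61 in squamous tissue (3.58-fold, SE 0.20 on the log2 scale, limma adjusted p = 0.000349). Spheroids held LCN2 at 8.74, 9.17 and 9.16. Its spheroid minus ESMG difference was 0.19 (95% interval -0.25 to 0.64), in contrast to the values of the subunit genes. Against squamous tissue LCN2 was 4.10-fold higher in spheroids (adjusted p = 1.27e-05).

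Besides SAL1 and LCN2, the retinol carrier RBP4 was called. It was at 5.36, 5.20 and 5.31 in ESMG and 5.54, 5.59 and 5.62 in squamous tissue, and rose to 6.86, 7.15 and 6.76 in spheroids (3.11-fold over ESMG, limma adjusted p = 3.85e-06, and 2.54-fold over squamous tissue, adjusted p = 1.50e-05). In these contrasts 1 and 2 of the 13 listed lipocalins were called, beside 16.9% and 16.7% of all genes; all were higher in spheroids, whereas SAL1 was lower there than in ESMG. The 13 genes had list medians of 0.18 and 0.16 against 0.09 and 0.03 over all genes. With the dimmest 1 in 3 genes left out RBP4 was no longer among the genes tested.

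Of 8 measured receptors that take up lipocalins or secretoglobins, or have been linked to their signals, 0 were called between ESMG and squamous tissue (3.06% of all genes; list median -0.08). In each spheroid contrast 1 was higher and 1 lower, beside 16.9% of all genes called against ESMG and 16.7% against squamous tissue. SLC22A17, a receptor of LCN2, was at 8.87, 8.94 and 8.99 in ESMG and 6.90, 7.08 and 6.53 in spheroids, 4.27-fold lower (limma adjusted p = 1.71e-06), and 4.29-fold lower than in squamous tissue (adjusted p = 1.46e-06). SDC1, a heparan sulfate proteoglycan of epithelial surfaces, was 4.07-fold higher in spheroids than in ESMG (adjusted p = 9.23e-05) and 2.86-fold higher than in squamous tissue (adjusted p = 0.000719).

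Steroids are the ligand class of pheromaxein. Of 23 listed genes that make, convert or sense them, 14 were measured and 0 were called in ESMG against squamous tissue, with a median of -0.08; with 3.06% of all genes called there, this count is near the background. In spheroids against ESMG, where 16.9% of all genes were called, 2 rose and 1 fell: the ketosteroid reductase AKR1C1 (2.82, limma adjusted p = 6.45e-06), the steroid sulfatase STS (1.02, adjusted p = 0.00157) and, falling, the mineralocorticoid receptor NR3C2 (-1.42, adjusted p = 0.000190). The AKR1C1 value rests on 1 of its 3 probe sets, since the other 2, which hold identical values, gave -0.37. STS fell under the fold minimum in 5 of 18 alternatives. In spheroids against squamous tissue AKR1C1 (2.65, adjusted p = 9.22e-06) and the steroid reductase SRD5A1 (1.09, adjusted p = 0.000234) rose and HSD3B1, which forms progesterone from its precursor, fell (-1.55, adjusted p = 0.000334). SRD5A1 fell under the fold minimum in 3 of 18 alternatives, and AKR1C1 with the mean of its probe sets (0.85).

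Other secretory products of the gland split in spheroids. Over all genes 2.65% were called higher in ESMG than in squamous tissue and 0.409% lower (median -0.06). Of 17 serous and salivary genes measured, 8 were higher in ESMG than in squamous tissue and 0 lower (list median 1.73), led by PIGR, the antibody transporter (4.78, limma adjusted p = 9.98e-06), and the antiprotease WFDC2 (4.45, adjusted p = 0.000141). Of 7 mucous genes 5 were higher and 0 lower (median 3.28), led by AGR2 (6.05, adjusted p = 0.000106) and CLCA1 (5.96, adjusted p = 0.000190). Of these 13 genes 8 were called lower in spheroids than in ESMG, 5 were not called and 0 were higher. Beside them, 8.91% of all genes were called lower and 7.99% higher. The 13 were picked for high levels on the same ESMG arrays, which favours lower calls here, so the split is a description. LPO (-5.66, adjusted p = 1.82e-08) and MUC19 (-5.92) had the largest falls of their lists, followed by PIGR (-3.24) and CLCA1 (-2.78). The subunit genes stood at -7.15 and -7.59. MUC19 is given without a test, since it was also named above for a profile like that of the pair. The 5 not called, named after their values were seen, were AGR2, WFDC2, SLPI, PI3 and GALNT12.

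Against squamous tissue the 13 genes also divided. Of them 7 were higher in spheroids, among them AGR2 (5.38, limma adjusted p = 1.86e-05), WFDC2 (4.26, adjusted p = 1.48e-05) and CLCA1 (3.18, adjusted p = 0.00130), and 1 was lower, LPO (-4.14, adjusted p = 1.19e-07). Of all genes 8.61% were called higher and 8.05% lower. The 13 were picked for ESMG levels above the same squamous arrays, which favours higher calls here. The subunit genes were on the low side of this comparison, as LPO was. The airway surface protein BPIFA1 was higher in spheroids than in squamous tissue (3.14, adjusted p = 0.00566) and was not called in the other contrasts. Without the squamous array of pig 37, BPIFA1 was called in all 3 (2.89, 1.41 and 4.29 for ESMG minus squamous tissue, spheroids minus ESMG and spheroids minus squamous tissue, adjusted p = 0.00154, 0.00587 and 1.17e-05).

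Transcription factors of secretory cells were largely measured, 24 of 25. In ESMG against squamous tissue, where 2.65% of all genes were higher and 0.409% lower (median -0.06), 8 factors were higher and 0 lower (list median 0.33). They were led by TFCP2L1, a factor of gland ducts (2.78, limma adjusted p = 2.85e-05), and CREB3L1, which drives genes of the secretory pathway (2.27, adjusted p = 7.05e-05). In spheroids against ESMG, where 8.91% of all genes fell and 7.99% rose (median 0.09), 5 factors fell and 2 rose (list median 0.16). The ETS factor ELF5 (-2.51, adjusted p = 1.46e-06) and CREB3L1 (-1.73, adjusted p = 3.73e-05) fell furthest, and HIF1A (1.22, adjusted p = 0.000355) and RUNX1 (1.15, adjusted p = 0.000615) rose; RUNX1 was under the fold minimum after cyclic loess (0.97) and without the spheroid array of pig 2 (0.94). The other 3 that fell, named after their values were seen, were SPDEF, XBP1 and CREB3L4, at -1.58, -1.27 and -1.37. Against squamous tissue, where 8.61% of all genes were higher in spheroids and 8.05% lower (median 0.03), 7 factors were higher and 1 lower (list median 0.60). TFCP2L1 (2.50, adjusted p = 4.43e-06) and the forkhead factor FOXA1 (2.44, adjusted p = 1.95e-05) led, and ELF5 fell (-2.96, adjusted p = 3.97e-07). These lists share samples with the contrasts that chose the subunit genes, so their counts are set beside the pair without a claim on its control.

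**Figure D5:**
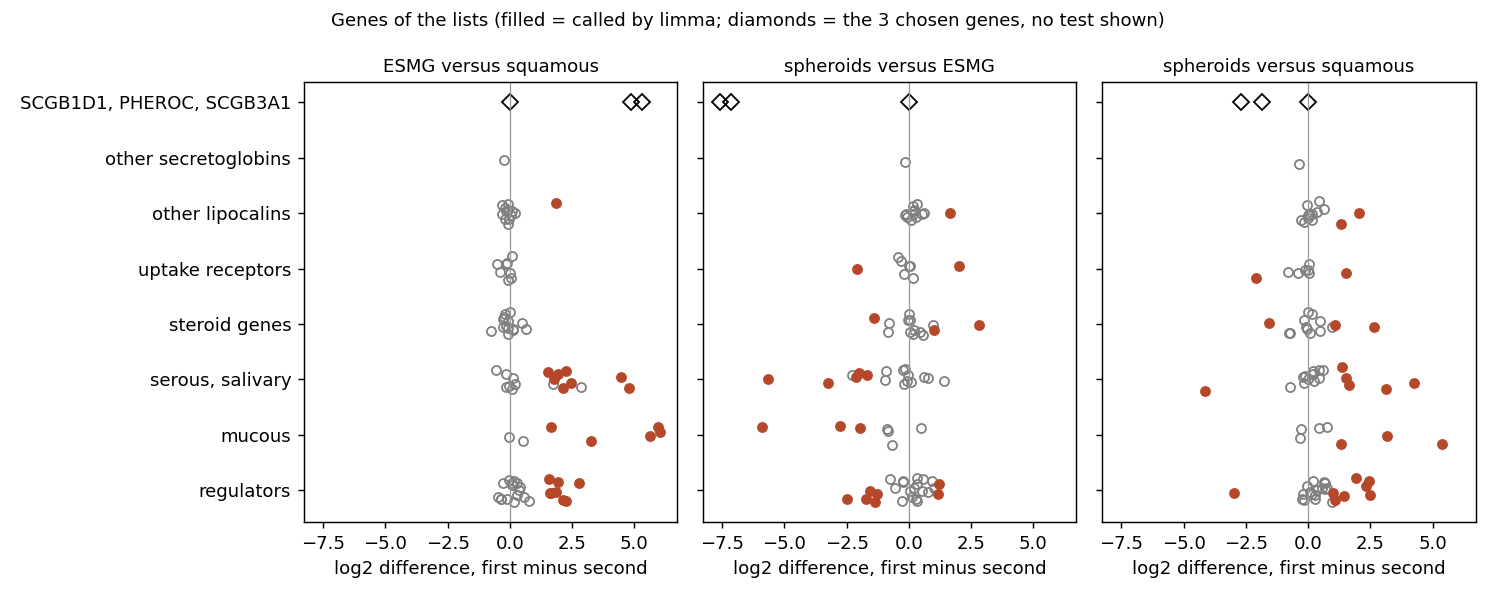
Log2 difference of every measured gene of the 7 related lists and of the 3 chosen genes in each comparison, with genes called by limma filled. In spheroids minus ESMG the pair at -7.15 and -7.59 lies beyond every gene of the lists. The nearest are MUC19 at -5.92 and LPO at -5.66. The pair was chosen for large gland-specific levels and lies near the floor in spheroids, so this rank carries no test. The listed lipocalins lie near 0 except RBP4. SAL1, at -1.50, is not in that list and is not plotted.

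Markers of other cell types moved with the spheroid contrasts. Compared with ESMG, 9 of 10 fibroblast, 7 of 8 smooth muscle, 6 of 7 endothelial, 4 of 9 leukocyte and 4 of 6 plasma cell markers were called lower in spheroids and 0 higher. Over all genes 8.91% were called lower in this comparison and 7.99% higher. The summed fibroblast level, on the log2 scale, was 15.07 to 15.37 in ESMG, 15.04 to 15.28 in squamous tissue and 11.22 to 12.04 in spheroids. That of smooth muscle was 14.16 to 14.75, 14.89 to 15.15 and 10.76 to 11.24 in the same groups. Endothelial markers summed to 11.45 to 11.51, 11.30 to 11.58 and 9.31 to 9.61. Plasma cell markers summed to 12.93 to 13.60 in ESMG, 11.65 to 12.12 in squamous tissue and 11.15 to 11.28 in spheroids. In spheroids against squamous tissue the list median was 0.05, 3 of the 6 were above 0, and 1 was called, PRDM1 (-2.43), which is named after its values were seen. Of all genes 16.7% were called in that contrast. Leukocyte markers summed to 11.11 to 12.30, 10.69 to 11.24 and 10.59 to 10.81. Of 4 nerve and glia markers 1 was higher and 1 lower in spheroids than in ESMG, and 0 were called between the tissues, where 3.06% of all genes were. The part of these cells in the results for the subunit genes was not tested.

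The tissue labels were borne out in part by markers. Of 10 glandular and ductal markers 9 were called higher in ESMG than in squamous tissue, beside 2.65% of all genes. The mean level of the 10 in spheroids (9.57 to 9.98) overlapped that in ESMG (9.55 to 10.14). All 5 measured squamous markers had lower means in ESMG than in squamous tissue, but by small amounts (-0.82 to -0.42, median -0.48), and 0 were called. In spheroids 3 of them were called lower than in ESMG, beside 8.91% of all genes. The glandular markers, in contrast to SCGB1D1 and PHEROC, were thus split in spheroids, 3 being called higher and 2 lower than in ESMG. The shares over all genes were 7.99% and 8.91%.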

How the data were processed

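Per the labels, the authors summarised arrays to log2 RMA levels in Affymetrix Expression Console (rma-gene-full). The submitters' processing notes also name Transcriptome Analysis Console 3.0, without its role. RMA corrects background, makes array distributions alike and compresses differences near the floor. Array medians lay between 6.84 and 7.04. No genome build is named. Each value column matched 1 sample, and groups and pig numbers came from titles.

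Of 27558 probe sets 13157 had 1 symbol in the platform annotation, 523 several and 13878 none. Symbols were updated by gene number with the RefSeq table of Sscrofa11.1 (12841 matched, 7 symbols changed), which also gave gene order; no coordinates are printed, as the array's build is not named. For genes with several probe sets the one with the highest mean stood, leaving 12217 genes.

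Using R 4.3.3 with limma 3.58.1 and statmod 1.5.0, a group-means model over 9 arrays was fitted (lmFit, eBayes), leaving 6 residual degrees of freedom, and two-sided p-values were adjusted by Benjamini-Hochberg over all genes. Calls needed both an adjusted p below 0.05 and a difference of 2-fold or more. The SEs and intervals given are from this fit, in which all groups share the same variance for a gene. The fit was also run on simulated arrays with independent normal noise and no animal effect, which does not test the results given here. The series' design text states biological replicates. Figures used matplotlib 3.10.9, and tables Python 3.11.15, pandas 2.3.3 and numpy 2.4.6.

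A planned test of the members in spheroids versus squamous tissue is not given, since their choice drew on all 3 groups. The members, 7 related lists and 8 marker lists were chosen with earlier results of these data known. Named genes were the members, the 4 nearest in profile to each, every called lipocalin, secretoglobin and uptake receptor, and the 2 largest called changes in each direction of the other lists; others are marked as picked afterwards. The alternatives were 3 scalings, a filter, array weights, pig as a random or fixed block, fits of only the groups compared, the mean of probe sets, another variance model and each array left out. ESMG and squamous arrays share animals, from the titles; deviations of the same pig correlated at 0.42, -0.15 and -0.17 over genes for pigs 37, 39 and 40. A planned search of promoters for motifs was not run, since no sequences were used here.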

Additional observations from a re-analysis of the deposited data

How the results depend on the processing

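The signs of the SCGB1D1 and PHEROC differences were kept in all 3 comparisons under every alternative run. Leaving out 1 array gave 4.56 to 6.08 for SCGB1D1 and 3.74 to 5.72 for PHEROC in ESMG versus squamous tissue, and -7.83 to -6.77 and -7.87 to -7.36 in spheroids versus ESMG. Spheroids versus squamous tissue was the least stable: leaving out 1 array gave -2.60 to -1.07 for SCGB1D1, -3.85 to -1.87 for PHEROC and -0.05 to 0.09 for SCGB3A1. There the SCGB1D1 difference was -1.71 with equal array medians, -1.68 after quantile normalization, -1.94 after cyclic loess, -1.84 with pig as a random replicate block or a trended robust variance, and -3.10 with array weights (PHEROC -4.01). PHEROC was at -2.41 without the squamous array of pig 40. SCGB3A1 changed sign with array weights (-0.05), and had no value with the dimmest genes left out.

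Called genes in ESMG versus squamous tissue numbered 276 to 569 with 1 array left out, the highest without the ESMG array of pig 40, and 397 with pig as a fixed block (335 as a random block), against 374; pairing by pig as a fixed block added a call of BPIFA1 in that comparison (1.73, adjusted p = 0.0493), and neither block changed another call given here. With 1 array left out, spheroids versus ESMG gave 2000 to 2243 and spheroids versus squamous tissue 2027 to 2104. Spheroids versus ESMG had 976 genes higher and 1089 lower, 1244 and 935 with equal medians, and 755 and 1245 after cyclic loess; spheroids versus squamous tissue had 1052 and 983, and 1370 and 834 with equal medians. Of other lipocalins and secretoglobins, 0 and 1 were called in spheroids versus ESMG and versus squamous tissue with the dimmest genes left out, since RBP4 was then not tested; in all other settings the counts stayed at 1 and 2. Equal medians moved the median difference of all genes from 0.09 to 0.20 in spheroids versus ESMG and from 0.03 to 0.16 in spheroids versus squamous tissue. The causes of these changes were not tested.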

Other observations

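Among the 13878 probe sets without a gene name, 4 lay within a root mean square difference of 1 of the SCGB1D1 profile and 10 within 1.5, against 2 and 7 named genes. The nearest, probe set 15290063, was 0.65 from SCGB1D1 and 1.11 from PHEROC, which puts it about as close to SCGB1D1 as PHEROC is. Its gene is not named in the table used here.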
